A study of Saccharomyces cerevisiae with 15 samples.

Results

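The final evolved strain of a β-carotene lineage of budding yeast, C7-143, was compared with C5-63, the evolved strain that precedes it, to ask which transcripts changed in the last step of the evolution. The comparison was defined by the strain labels alone: it uses 6 of the 15 libraries of the series, 3 of C7-143 and 3 of C5-63, and covers the 5980 genes of the deposited table, of which 5814 passed a filter on low counts. All strains are Saccharomyces cerevisiae in the S288C background and carry the his3Δ1, leu2Δ0, met15Δ0 and ura3Δ0 alleles. C5-63 and C7-143 both express the genome-editing nuclease spCas9-NG, HMG1 (HMG-CoA reductase) and the carotenoid genes CrtE, CrtYB and Crt I. The same genes are expressed in C0, the strain from which the lineage starts, and in C3-06, an earlier evolved strain, whereas BY47419 carries the nuclease alone. The labels do not say which mutations separate C5-63 from C7-143, and each is a single strain. The medium was YPD (20 g/L glucose) at 30 °C, and cells were taken at an OD600 of about 3.

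The 6 libraries held 18452713 to 21586409 reads on genes. Nothing in the labels says whether libraries of a strain are separate cultures. The spread within strains was estimated over all 15 libraries of the series. The p-values therefore reflect only that shared spread, possibly a technical one. Levels are given as CPM, counts scaled to library size with TMM (trimmed mean of M values) factors, and changes as the log2 fold change of C7-143 over C5-63 with its standard error (SE). A gene was called higher or lower at an adjusted p below 0.05 (edgeR quasi-likelihood test, Benjamini-Hochberg adjustment over the 5814 genes). RNA from whole cultures was measured, so a shift in the mix of cell states and a change within each cell cannot be told apart, and the growth phase of the single cultures was not checked.

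Yeast cells that grow fast on glucose devote much of their transcription to ribosomes and glycolysis. Signalling through TOR and protein kinase A favours these genes and holds back the transcription factors Msn2 and Msn4, which drive the general stress response. Respiration and the use of other carbon sources are repressed by glucose. The carotenoid pathway draws on farnesyl diphosphate from the mevalonate pathway, the same precursor that cells use for ergosterol, the main sterol of their membranes.

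With TMM scaling, most members of the lists for cytosolic ribosomal proteins, ribosome biogenesis, translation, purine synthesis, glycosylation, ergosterol and DNA replication were called higher in C7-143, and most of the stress, stationary phase and respiratory lists were called lower. In all, 1451 genes were higher in C7-143 (25.0% of the genes tested) and 1387 were lower (23.9%), and 2976 were not called. Most changes were small: 74% of the calls were under 1.5-fold, and the median size of the change over all genes was 0.24 on the log2 scale. At least 2-fold changes were seen in 112 higher and 57 lower genes. The 3 libraries of C7-143 lay entirely above or below those of C5-63 for 62.0% of the genes tested. On the first principal component of the 6 libraries, which held 77.6% of their variance, C5-63 lay at -13.7, -18.2 and -14.4 and C7-143 at 16.6, 18.7 and 11.1. The split between higher and lower genes depended on the scaling: with library totals alone, the median gene lay at -0.18 and 714 genes were higher and 2314 lower, against a median of -0.01 with TMM. Counts of list members with library totals are given below for many of the lists where they moved by over 1.5 times. Not every such move is given, so a count without one may also depend on the scaling. Of all calls, 23.6% were higher with library totals and 51.1% with TMM. List counts with library totals are to be read beside that shift of all genes.

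**Figure D1:**
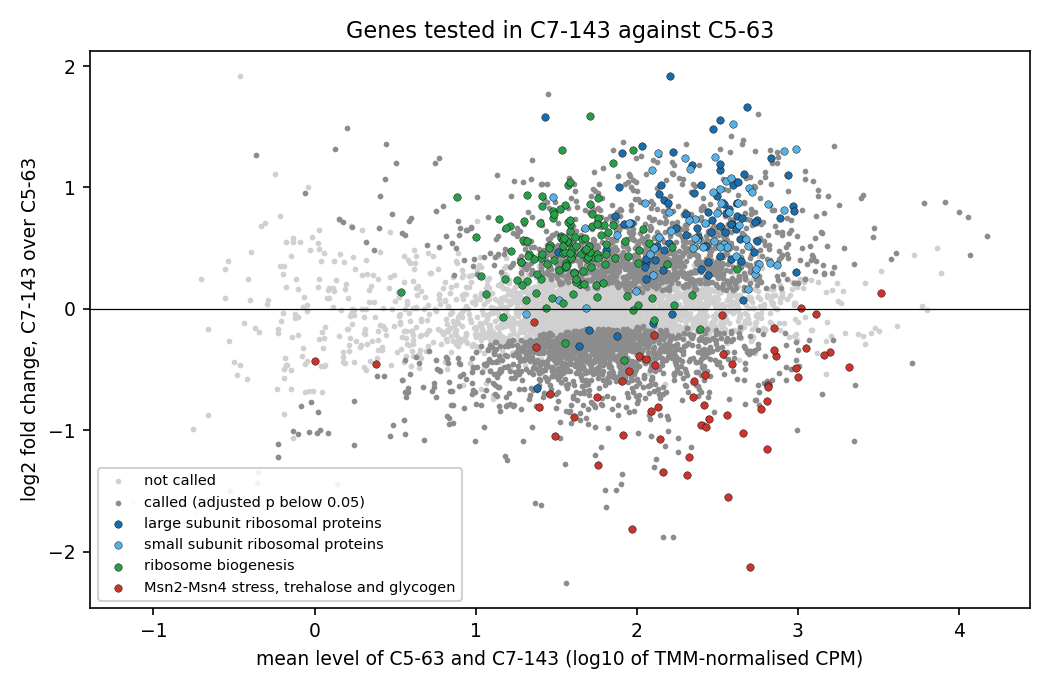
Log2 fold change of C7-143 over C5-63 against the mean level of both strains, 1 point per gene tested (GAL80, at 0 in both, is not drawn). Dark grey points were called at an adjusted p below 0.05, and coloured points mark 4 gene lists. Most ribosomal protein genes lie above 0 at high levels, the ribosome biogenesis genes above 0 at lower levels, and the stress genes below 0 down to -2.13.

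Most cytosolic ribosomal protein genes rose. Of the 81 genes for proteins of the large subunit, 72 were higher and 3 lower (median 0.70 on the log2 scale), and of the 57 for the small subunit, 51 were higher and 0 lower, with a median of 0.67. The median over all genes tested was -0.01. RPL9A (YGL147C, chromosome VII, 227754 to 228329), which encodes a protein of the large subunit, stood at 68.5, 55.7 and 77.0 CPM in C5-63 and at 282, 279 and 198 CPM in C7-143. Its log2 fold change of 1.92 ± 0.16 (SE, adjusted p = 4.17e-07) was the largest of all called genes that had a standard symbol, non-overlapping libraries and at least 10 CPM in the higher strain. RPL2A, another large subunit gene, was at 225, 219 and 253 CPM in C5-63 and at 806, 802 and 599 CPM in C7-143. Both genes were lowest in the same C7-143 library, replicate 3, which still lay far above every C5-63 library. RPL29 (log2 1.58), RPL43A (1.56), RPL30 (1.48) and RPL22A (1.34) were also among the 15 largest rises. On the small subunit, ASC1, whose product sits at the head of the subunit and takes part in signalling, rose by 1.52 ± 0.12 on the log2 scale (adjusted p = 2.21e-07). RPS31, which encodes a fusion of ubiquitin and a ribosomal protein, rose from 560 ± 31.1 to 1398 ± 231 CPM (SD, n = 3 per strain here and below).

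The large subunit genes called lower were RPL22B (log2 -0.66), RPL7B (-0.30) and RPL15B (-0.17), each a copy of a duplicated gene, while RPL22A rose. A further 6 genes of each subunit were not called. RPL9B, the near-identical partner of RPL9A, was at 127, 127 and 142 CPM in C5-63 and at 120, 132 and 113 CPM in C7-143, and its change of -0.11 was not called (adjusted p = 0.278). The libraries of the strains overlapped for RPL9B but not for RPL9A. Reads of near-identical copies may have been shared out between them or left out by the authors' counting, so values of single copies are less certain than those of the pair. As a share of all reads, the large subunit genes held 2.09, 1.94 and 2.24% in the C5-63 libraries and 3.18, 3.43 and 2.75% in those of C7-143. The small subunit genes held 1.59 ± 0.0939% and 2.35 ± 0.270% in the same strains. Neither share overlapped between the strains, and each difference gave p = 0.1 in an exact two-sided permutation test, the smallest p that 3 against 3 libraries allow.

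Ribosome assembly genes rose as well, less steeply. Of 130 ribosome biogenesis genes, whose products process ribosomal RNA and assemble the subunits, 92 were higher, with a median of 0.46, and 1 was lower (SOF1, -0.42). With library totals alone 37 were higher. DBP2 (YNL112W), an RNA helicase, stood at 23.5, 21.2 and 31.8 CPM in C5-63 and at 77.7, 91.9 and 61.1 CPM in C7-143, a log2 fold change of 1.59 ± 0.20 (adjusted p = 1.34e-05). HAS1, an RNA helicase of both subunits' assembly, stood at 52.6, 43.9 and 66.4 CPM in C5-63 and at 133, 154 and 116 CPM in C7-143. In both genes C5-63 replicate 3 was the highest of its strain and still below all C7-143 libraries. DBP9, another helicase (log2 0.75), and SDA1, needed for export of the large subunit (1.31), had the lowest adjusted p next to DBP2 and HAS1. Of 24 subunit genes of RNA polymerases I and III, which transcribe ribosomal, transfer and other small RNAs, 13 were higher and 0 lower, with a median of 0.32. RPA190, the largest subunit of polymerase I, rose by 0.76 ± 0.16 and RPA43 by 1.07 ± 0.19 on the log2 scale. The count for these polymerases fell to 4 with library totals alone and to 7 without C7-143 replicate 2.

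The promoters of 4 of these genes are shown because they carry the sequence elements for which the group is known. Capitals mark the core of the polymerase A and C box (PAC, GATGAG) or of the ribosomal RNA processing element (RRPE, AAATTTT) on either strand, and adjacent or overlapping matches form longer runs. Each line runs 5′ to 3′ along the gene's strand, from 250 to 51 bases before the start codon, from the RefSeq genome, build R64. The stretch of DBP2 lies at chrXIV:413389-413588 (plus strand), that of HAS1 at chrXIII:851642-851841 (minus strand), that of DBP9 at chrXII:696881-697080 (minus strand) and that of SDA1 at chrVII:982119-982318 (minus strand).
DBP2: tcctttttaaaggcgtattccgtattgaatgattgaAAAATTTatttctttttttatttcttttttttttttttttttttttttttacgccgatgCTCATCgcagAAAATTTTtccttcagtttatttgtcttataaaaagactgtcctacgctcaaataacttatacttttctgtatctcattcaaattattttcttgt
HAS1: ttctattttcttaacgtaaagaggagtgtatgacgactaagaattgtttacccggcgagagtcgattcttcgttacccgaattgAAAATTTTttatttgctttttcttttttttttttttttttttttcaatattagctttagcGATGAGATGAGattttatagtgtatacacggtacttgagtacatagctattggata
DBP9: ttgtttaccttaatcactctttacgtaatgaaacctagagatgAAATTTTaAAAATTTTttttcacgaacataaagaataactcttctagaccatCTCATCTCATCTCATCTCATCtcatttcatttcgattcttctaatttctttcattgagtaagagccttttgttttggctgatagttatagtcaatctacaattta
SDA1: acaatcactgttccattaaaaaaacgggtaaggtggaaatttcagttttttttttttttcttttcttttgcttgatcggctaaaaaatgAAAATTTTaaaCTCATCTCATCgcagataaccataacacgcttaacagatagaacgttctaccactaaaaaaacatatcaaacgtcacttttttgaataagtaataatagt
In a window from 250 bases before to 50 after the start codon, PAC was found in 118 of the 130 biogenesis genes (90.8%) and in 79.2% of the genes for polymerases I and III, against 20.4% of all 5971 promoters read. RRPE was found in 95.4% of the biogenesis genes, against 23.2% of all promoters. Over all called genes, PAC was in 25.2% of those higher and 16.5% of those lower in C7-143, and RRPE in 33.2% and 18.6%. The core of the Rap1 site (CCCNNACA), known from ribosomal protein genes, was in 6.97% of the higher and 6.35% of the lower genes, close to the 6.58% of all promoters. It was in 12.3% of the promoters of each ribosomal protein list within this window. Sites further upstream were not searched, so the shares count only sites near the start codon.

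Genes of translation moved in the same direction as the ribosomal genes. Of 19 genes for cytosolic aminoacyl-tRNA synthetases, which load amino acids onto transfer RNAs, 18 were higher and 0 lower, with a median of 0.65. GLN4, the glutamine enzyme, was the exception at 0.11 (adjusted p = 0.204). GUS1, the glutamyl-tRNA synthetase, stood at 485, 450 and 419 CPM in C5-63 and at 1014, 911 and 830 CPM in C7-143, with no overlap. Of 40 translation factor genes, 28 were higher, with a median of 0.41, and 1 was lower (HEF3, -0.44), and 18 were higher with library totals alone. No factor was lower without C5-63 replicate 2, C7-143 replicate 1 or C7-143 replicate 2. EFB1, an exchange factor of elongation factor 1, rose from 430 ± 23.5 to 1052 ± 158 CPM. TEF2, a copy of elongation factor 1 alpha, rose from 1284 ± 13.8 to 2319 ± 286 CPM, though its partner TEF1 is near identical. Mitochondrial ribosomal proteins did not follow the cytosolic ones: of 77 genes, 0 were higher and 25 lower, with a median of -0.15, and 47 were lower with library totals alone. MRPS18 had the lowest adjusted p among them, at -0.45 ± 0.06 on the log2 scale (adjusted p = 1.68e-05).

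**Figure D2:**
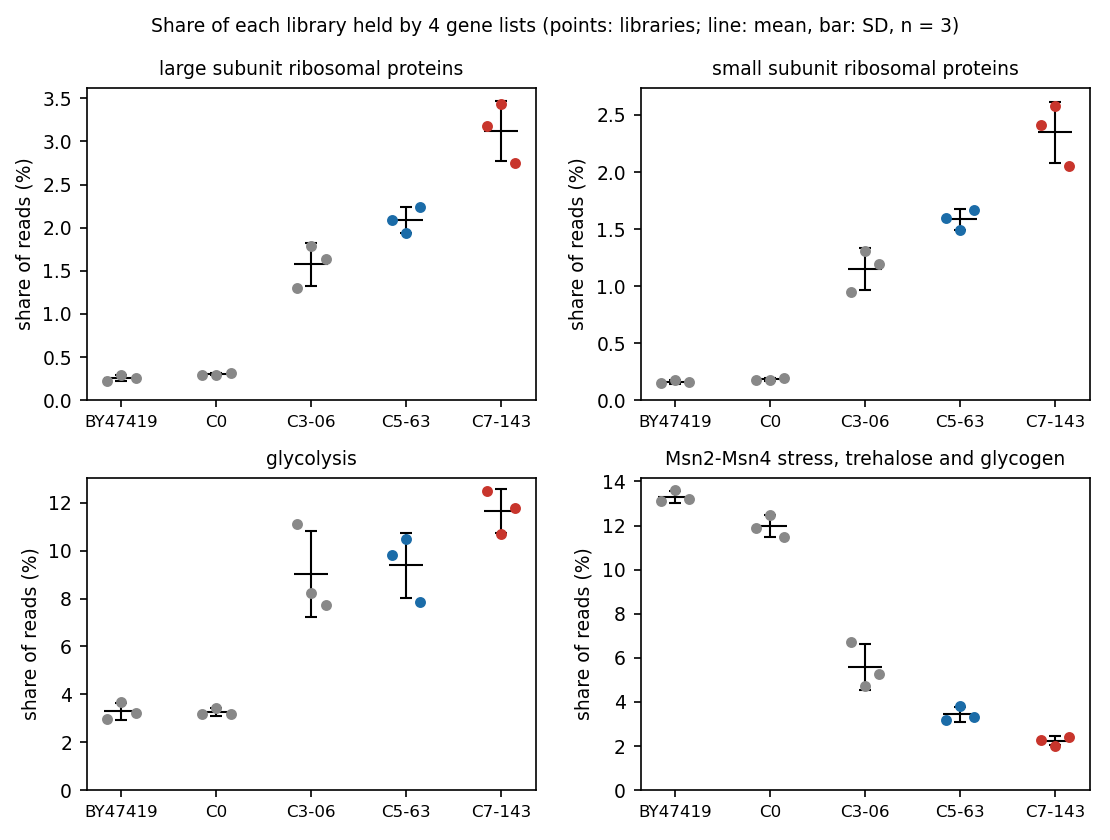
Share of all reads (%, linear axis from 0) held by 4 gene lists in each of the 15 libraries; points are libraries, the line is the mean and the bar its SD over 3 libraries. For the ribosomal proteins all C7-143 libraries lie above all C5-63 libraries, for glycolysis likewise with the closest libraries at 10.7 and 10.5%, and for stress genes they lie below, at 2.02 to 2.42% against 3.19 to 3.83%.

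Stress genes fell. Of 55 genes of the Msn2-Msn4 response, with trehalose and glycogen genes among them, 40 were lower and 0 higher in C7-143, with a median of -0.63. HSP26 (YBR072W), a small heat shock protein, stood at 628, 1174 and 655 CPM in C5-63 and at 234, 114 and 215 CPM in C7-143, a log2 fold change of -2.13 ± 0.29 (adjusted p = 3.01e-05). C5-63 replicate 2 was the highest and C7-143 replicate 2 the lowest, and the strains did not overlap. DDR2, induced by many stresses, stood at 101, 172 and 163 CPM in C5-63 and at 36.6, 35.6 and 52.1 CPM in C7-143 (log2 -1.81 ± 0.22). HSP12, a membrane-stabilising stress protein, fell by 1.37 ± 0.19 on the log2 scale, and CTT1, the cytosolic catalase, by 1.07 ± 0.12. SPI1, a cell wall protein, went from 548 ± 134 to 187 ± 27.5 CPM. Among the carbohydrate stores, GPH1, the glycogen phosphorylase (log2 -0.97), GLC3, the branching enzyme (-0.87), and GSY2, the main glycogen synthase (-0.65), were lower. The trehalose synthase genes TPS1 (-0.36) and TPS2 (-0.34) did not pass the test.

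The promoters of DDR2 and HSP12 are shown for their stress response elements (STRE, AGGGG or CCCCT on the other strand), in capitals. They run from 250 to 51 bases before the start codon along the gene's strand, at chrXV:231806-232005 (minus strand) and at chrVI:107006-107205 (plus strand), build R64.
DDR2: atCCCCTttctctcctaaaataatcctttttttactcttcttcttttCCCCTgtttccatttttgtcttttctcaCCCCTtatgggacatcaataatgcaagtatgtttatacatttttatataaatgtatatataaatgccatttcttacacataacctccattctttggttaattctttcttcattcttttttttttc
HSP12: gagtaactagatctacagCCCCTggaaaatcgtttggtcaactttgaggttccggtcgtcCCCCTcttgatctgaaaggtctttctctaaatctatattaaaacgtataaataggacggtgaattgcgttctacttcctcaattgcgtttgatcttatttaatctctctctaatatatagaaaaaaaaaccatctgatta
DDR2 has 3 such sites and HSP12 has 2. In the window from 250 before to 50 after the start codon, 63.6% of the 55 stress genes held this element, against 21.6% of all promoters. It was in 29.6% of all genes lower in C7-143, in 17.4% of those higher, and in 45.6% of those at least 2-fold lower. Genes with the element had a median log2 fold change of -0.10 and those without it of 0.01.

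Genes known from stationary phase fell too. Of 25 such genes, 16 were lower and 2 were higher (RIM15 and UBI4, both 0.25), and the median was -0.42. Without C5-63 replicate 1 the list had 1 higher gene, and without any other of the 6 libraries 0. SPG4 (YMR107W), a member of this list, had the largest fall of the named genes. It stood at 42.7, 70.8 and 66.9 CPM in C5-63 and at 9.06, 9.92 and 18.9 CPM in C7-143, a log2 fold change of -2.26 ± 0.27 (adjusted p = 1.08e-05). HSP30, a plasma membrane protein that limits the proton pump Pma1, and YRO2, its relative, both fell by 1.88 on the log2 scale. FMP16 (-1.64), FMP45 (-1.61), PIR3 (-1.49), BDH2 (-1.44), SPS100 (-1.36), RTN2 (-1.35) and GPG1 (-1.30) completed the 15 largest falls with NQM1, described below. YGP1, a secreted glycoprotein of nutrient-limited cells, had the largest loss in CPM and went from 2719, 3724 and 2640 to 1459, 1242 and 1572 CPM. No library of C7-143 reached the lowest of C5-63. Of 31 oxidative stress genes, 12 were lower and 2 higher (TRX1, 0.52, and MXR1, 0.29), with 21 lower under library totals. Without C5-63 replicate 3, C7-143 replicate 1 or C7-143 replicate 2, 1 gene was higher, and 6 genes were higher without C3-06 replicate 1 and BY47419 replicate 2. GTT2, a glutathione transferase, fell by 0.79 ± 0.07 and PRX1, the mitochondrial peroxiredoxin, by 0.68 ± 0.10 on the log2 scale.

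Of 25 heat shock and chaperone genes, 7 were higher (28.0%, close to the 25.0% of all genes), 2 were lower and 16 were not called, and the median was 0.06. The higher ones included SSB1 (log2 1.00) and SSB2 (0.65), the Hsp70 proteins that act at the ribosome, SSE1 (1.07), their nucleotide exchange factor, and CDC37 (0.89), a partner of Hsp90. SSA2, a constitutive Hsp70, was also higher (1.34 ± 0.23, adjusted p = 0.0002185). SSE2 (-0.49) and APJ1 (-0.65) were lower. HSP82, the inducible Hsp90, was at -0.36 and did not pass, whereas HSC82, the constitutive copy, rose by 0.62. The number of lower genes rose to 7 with library totals and to 5 without C7-143 replicate 1, and it fell to 1 without C5-63 replicate 2. These copies are close in sequence, and the split of reads between them is uncertain.

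Glycolysis carried the largest gains in reads. The 5 genes with the largest absolute rise in CPM were TDH3, FBA1, CDC19 and ENO2 of glycolysis and ADH1, the main alcohol dehydrogenase of fermentation. CDC19, the main pyruvate kinase, stood at 7566, 8471 and 6018 CPM in C5-63 and at 14162, 11638 and 12523 CPM in C7-143 (log2 0.80 ± 0.17, adjusted p = 0.00116). TDH3, glyceraldehyde-3-phosphate dehydrogenase, stood at 12430, 13114 and 10151 CPM in C5-63 and at 19901, 17014 and 17216 CPM in C7-143. Both genes were lowest in C5-63 replicate 3, and neither overlapped. Of 17 glycolysis genes, 8 were higher and 2 lower, with a median of 0.41. Their share of reads rose from 9.40 ± 1.38% to 11.7 ± 0.879% (exact permutation p = 0.1). ENO1, TDH1, TDH2, PGK1, TPI1, PGI1 and GLK1 did not pass the test.

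In several families of isoenzymes the copy that dominates in glucose rose and its partner fell. These pairs were chosen after their values were seen, and near-identical ones may share reads. HXK2, the hexokinase of glucose-grown cells, rose by 0.52 ± 0.10 on the log2 scale, and HXK1, its partner, was at 1377, 2049 and 1839 CPM in C5-63 and at 1024, 857 and 1361 CPM in C7-143. HXK1 was called lower (log2 -0.70 ± 0.25, adjusted p = 0.0311), but the call was lost without C5-63 replicate 2 (-0.57) or 3 (-0.68) and without C7-143 replicate 1 (-0.68) or 2 (-0.56). By the authors' deposited FPKM, which are scaled to gene length, HXK1 stood at a mean of 1387 and HXK2 at 980 in C5-63, and HXK1 at 764 and HXK2 at 1250 in C7-143, so the order of the pair turned. PYK2, the minor pyruvate kinase, fell by 0.30 ± 0.06 on the log2 scale. PDC6, a minor pyruvate decarboxylase, fell by 0.79 ± 0.09 and ADH2, the glucose-repressed alcohol dehydrogenase, by 0.84 ± 0.13. PDC1 (0.46) and ADH1 (0.87) rose, but PDC1 was not called without C7-143 replicate 1. Of the glycerol-3-phosphatases, GPP1 rose by 0.87 and GPP2 fell by 0.59. The order of these turned as well, from deposited FPKM of 440 for GPP1 and 854 for GPP2 to 716 and 507.

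In the pentose phosphate pathway, which makes NADPH and ribose, several related genes also moved in opposite directions. GND1, the major 6-phosphogluconate dehydrogenase, stood at 1086, 1069 and 1035 CPM in C5-63 and at 2164, 1977 and 1925 CPM in C7-143 (log2 0.93 ± 0.09, adjusted p = 1.65e-06). GND2, the minor copy, stood at 72.0, 87.2 and 87.0 CPM and then at 33.0, 31.0 and 37.1 CPM (-1.28 ± 0.12, adjusted p = 1.00e-06). The libraries of the strains were far apart for both genes, in opposite directions. TKL1, the major transketolase, rose by 1.05 and TKL2, the minor, fell by 0.38. TAL1, the transaldolase, rose by 0.36 and NQM1, its relative, fell by 1.49. SOL4 fell by 1.22, and SOL3, its partner, was at -0.21 and did not pass (adjusted p = 0.122). IDP1, the mitochondrial NADP-dependent isocitrate dehydrogenase, rose from 189 ± 4.83 to 472 ± 15.9 CPM (1.32 ± 0.07, adjusted p = 2.09e-09). In all, 8 of the 20 listed genes of the pathway and of NADPH supply were higher (40.0%, against 25.0% of all genes). The share of lower genes, 5 of 20 (25.0%), was close to the 23.9% of all genes. The median was -0.02, and 9 were lower with library totals alone.

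**Figure D3:**
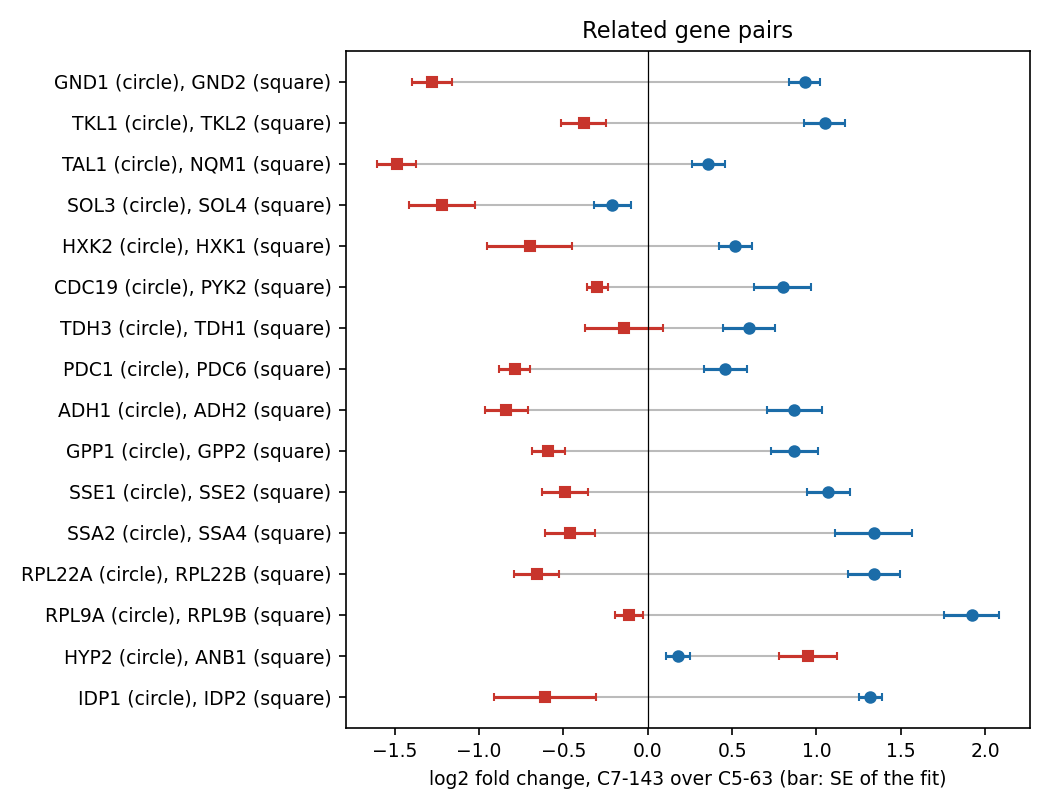
Log2 fold change of C7-143 over C5-63 for 16 pairs of related genes, the circle for the gene named first and the square for the gene named second, with the SE of the fit as bars. In most pairs the circle lies right of 0 and the square left of it, as for GND1 at 0.93 and GND2 at -1.28, and HYP2 and ANB1 (both right of 0) and SOL3 and SOL4 (both left of 0) do not share that pattern.

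Respiratory genes were lower. Of 40 nuclear genes for the respiratory chain and ATP synthase, 26 were lower and 1 was higher (ATP1, 0.24), with a median of -0.31. When each of the 6 libraries was left out in turn, the list had a higher gene only without C5-63 replicate 3. QCR10, a subunit of complex III, stood at 143, 172 and 180.5 CPM in C5-63 and at 97.1, 114 and 103 CPM in C7-143 (log2 -0.66 ± 0.10, adjusted p = 9.21e-05). ATP4 of the ATP synthase and RIP1, the iron-sulfur protein of complex III, fell by 0.55 and 0.56 on the log2 scale. The CCAAT box bound by the Hap2-Hap3-Hap4-Hap5 complex was in 82.5% of the promoters of this list and in 43.3% of all promoters. Over all called genes its share was 44.3% in the lower and 42.6% in the higher. Of 17 TCA cycle genes, 9 were lower and 1 higher (LPD1, 0.20), with a median of -0.33, and 14 were lower with library totals. When each of the 6 libraries was left out in turn, the list had a higher gene only without C7-143 replicate 3. CIT1, the mitochondrial citrate synthase, went from 742 ± 60.4 to 485 ± 59.6 CPM, and the succinate dehydrogenase genes SDH2 (-0.51), SDH4 (-0.42) and SDH3 (-0.33) fell with it.

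Genes for the use of other carbon sources moved the same way, with fewer calls. Of 19 gluconeogenesis and glyoxylate genes, 6 were lower and 0 higher, with a median of -0.49. That count was 10 with library totals, 16 with only the 6 libraries in the fit, and 11 without the libraries C3-06 replicate 1 and BY47419 replicate 2, which stand apart within their strains. MDH2, the cytosolic malate dehydrogenase, went from 1018 ± 58.2 to 678 ± 54.7 CPM, and CAT8, an activator of these genes, was at -0.43. FBP1 (-0.71), ICL1 (-0.57) and PCK1 (-0.45), the enzymes most specific to these routes, did not pass the test in the fit of all libraries. Of 28 peroxisome and beta-oxidation genes, 11 were lower and 0 higher (18 lower with library totals). TES1, an acyl-CoA thioesterase, was at -0.49 and PXA2, a subunit of the peroxisomal fatty acyl transporter, at -0.54. ALD4, the mitochondrial acetaldehyde dehydrogenase, stood at 286, 374 and 415 CPM in C5-63 and at 166, 184 and 228 CPM in C7-143.

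Among 19 tested hexose transporters and sensors, 6 were lower and 0 higher, but only 3 without C7-143 replicate 1 and 2 without C7-143 replicate 2. HXT5, a transporter of slow growth, fell by 0.87 ± 0.16 and RGT2, the sensor of high glucose, by 0.41 ± 0.07 on the log2 scale. The galactose genes, which are under GAL4 and its repressor GAL80, were at high levels: GAL10, the epimerase, stood at 5983, 6858 and 6119 CPM in C5-63 and at 6473, 6063 and 6336 CPM in C7-143, overlapping. GAL80, which the strain labels do not list, had 0 reads in all 6 libraries, where a count of 0 allows up to 3. It was also at 0 CPM in C0 and C3-06, against a mean of 160 CPM in BY47419, so its absence did not arise in the last step. Of 12 listed genes of this regulon, 5 were lower and 0 higher (9 lower with library totals). GAL7, the transferase, went from 2427 ± 113 to 1745 ± 94.3 CPM, while GAL1, the kinase (-0.23), and GAL2, the permease (-0.26), were not called.

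Mevalonate and ergosterol genes were mostly higher with TMM scaling. HMG1, listed as overexpressed in both strains, stood at 427, 479 and 650 CPM in C5-63 and at 517, 645 and 649 CPM in C7-143. The strains overlapped, the log2 fold change of 0.22 ± 0.13 was not called (adjusted p = 0.176), and without C5-63 replicate 3 it was 0.40 and passed. Reads of the native and any added copy are counted together. Of the 10 mevalonate and prenyl genes, 6 were higher and 0 lower, with a median of 0.33. With library totals 3 were higher and 1 lower (ERG8, -0.29). ERG20, the farnesyl diphosphate synthase that supplies both carotenoids and sterols, stood at 731, 706 and 650 CPM in C5-63 and at 1144, 1079 and 1001 CPM in C7-143 (0.63 ± 0.09, adjusted p = 3.56e-05). IDI1, the isomerase before it, rose by 0.65 ± 0.09. ERG13, the HMG-CoA synthase, rose by 0.50, HMG2, the second reductase, by 0.35, and ERG12, mevalonate kinase, by 0.31. MVD1, the decarboxylase, was at 0.40 and was called, but not without C5-63 replicate 1 (0.38) or 2 (0.34) or C7-143 replicate 1 (0.33) or 2 (0.37). ERG10 (0.12), ERG8 (-0.12) and BTS1 (-0.10), which makes geranylgeranyl diphosphate, were not called with TMM scaling. With library totals ERG13 (0.33), ERG12 (0.14) and MVD1 (0.22) lost their calls.

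Of 16 ergosterol genes, 11 were higher and 0 lower, with a median of 0.30, and 7 were higher with library totals. The entry enzymes changed little or were not called: ERG9, squalene synthase, was at 0.17, and ERG1, the epoxidase (0.16), and ERG7, the cyclase (-0.02), were not called. ERG11, the lanosterol demethylase, stood at 574, 577 and 614 CPM in C5-63 and at 1268, 1169 and 1022 CPM in C7-143. NCP1, the reductase that feeds it electrons, stood at 259, 242 and 244 CPM in C5-63 and at 531, 481 and 457 CPM in C7-143 (0.98 ± 0.08, adjusted p = 2.14e-07). ERG25, the C-4 methyl oxidase, rose from 698 ± 53.4 to 1532 ± 197 CPM (1.13 ± 0.16). None of these 3 genes overlapped between the strains. ERG2 (0.91), ERG6 (0.80), ERG3 (0.69) and ERG4 (0.67), which finish the ring and side chain, also rose, as did ERG24 (0.33), while ERG5 (0.07), ERG26 (0.24) and ERG28 (0.15) were not called. With library totals ERG24 (0.16), ERG9, ERG27 and ERG29 lost their calls. The calls of ERG9, ERG27 (0.20) and ERG29 (0.27) also depended on single libraries. ERG9 lost its call without C5-63 replicate 1 (0.17) or 3 (0.15) and without C7-143 replicate 1 (0.13) or 3 (0.18). ERG27 lost it without C5-63 replicate 1 or 3 (both 0.17) and without C7-143 replicate 1 (0.15) or 2 (0.19). ERG29 lost it without C5-63 replicate 1 (0.21) or 2 (0.25) and without C7-143 replicate 1 or 3 (both 0.25).

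**Figure D4:**
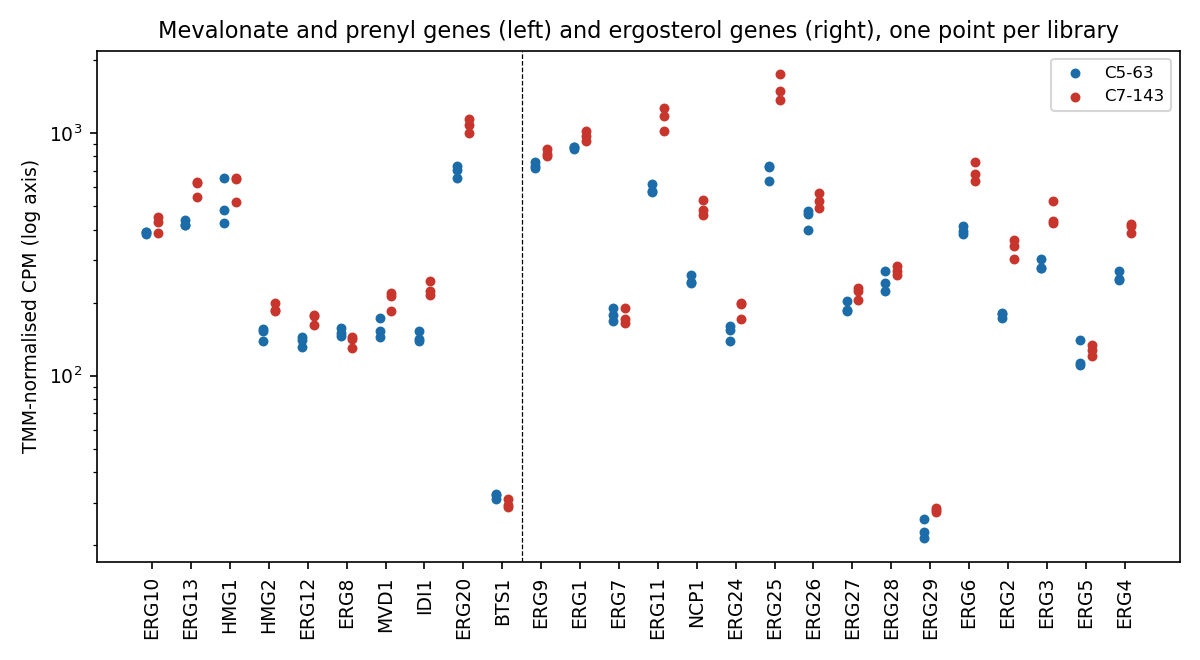
TMM-normalised CPM (log axis) of the 10 mevalonate and prenyl genes, left of the dashed line, and the 16 ergosterol genes, right of it, with 1 point per library (C5-63 blue, C7-143 red). The strains are clearly apart for ERG20, ERG11, NCP1, ERG25, ERG6, ERG2, ERG3 and ERG4, and overlap for HMG1, ERG7 and ERG5.

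Of 23 sterol regulators and storage genes, 9 were higher and 4 lower, and 5 were higher without C7-143 replicate 1. With library totals, where 714 of the 5814 genes tested were higher and 2314 lower, 1 of these genes was higher and 7 lower. UPC2, the main activator of sterol genes, was at 0.38 ± 0.10 and LRO1, which makes storage triacylglycerol, at 0.57 ± 0.12. The sterol response element bound by Upc2 and Ecm22 (TCGTATA) was searched in the same window, not further upstream. It was in 1 of 16 ergosterol promoters (6.25%), 2 of 10 mevalonate promoters (20.0%) and 4.12% of all promoters. Genes of fatty acid synthesis were also mostly higher with TMM scaling. Of 17 genes, 11 were higher and 1 lower (SPT23, -0.22), with a median of 0.39, and 5 were higher with library totals. The lower count was 0 without C5-63 replicate 1 or 2 or C7-143 replicate 2 or 3. ACC1, acetyl-CoA carboxylase, which commits acetyl-CoA to fatty acids, stood at 232, 244 and 182 CPM in C5-63 and at 577, 518 and 517 CPM in C7-143 (log2 1.29 ± 0.09, adjusted p = 6.63e-08). The fatty acid synthase genes FAS1 (0.81 ± 0.09) and FAS2 (0.93 ± 0.09) rose with it, as did ELO2, an elongase (1.00 ± 0.12). OLE1, the desaturase, was at 0.16 and was not called.

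Phospholipid genes showed 12 of 21 higher and 3 lower, with a median of 0.38. Without C5-63 replicate 2 or C7-143 replicate 2, 1 was lower. CHO2, the first methyltransferase on the way to phosphatidylcholine, stood at 150.5, 149 and 147 CPM in C5-63 and at 350, 341 and 324 CPM in C7-143 (log2 1.18 ± 0.06, adjusted p = 2.09e-09). ITR1, the major inositol transporter, rose from 387 ± 15.3 to 960 ± 82.6 CPM, and CPT1, a cholinephosphotransferase, from 107 ± 5.12 to 231 ± 13.02 CPM. OPI3, which completes the methylation, did not pass (0.10). Of 18 sphingolipid genes, 7 were higher and 0 lower, and with library totals 5 were lower. LCB1 (0.61) and LCB2 (0.74), the subunits of serine palmitoyltransferase, were among those that rose.

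Glycosylation genes were mostly higher. Of 53 glycosylation genes, 40 were higher and 1 lower (ALG1, -0.20), with a median of 0.42. PMT1 (YDL095W), a protein O-mannosyltransferase of the endoplasmic reticulum, stood at 259, 260 and 243 CPM in C5-63 and at 690, 673 and 634 CPM in C7-143, a log2 fold change of 1.39 ± 0.06 (adjusted p = 4.07e-10). Its partner PMT2 rose by 1.30 ± 0.06. PSA1, which makes GDP-mannose, and KTR1, a mannosyltransferase, rose by 1.13 and 0.99 on the log2 scale. The spread within each strain was small beside these changes. Of 30 genes for folding in the endoplasmic reticulum and the unfolded protein response, 15 were higher and 2 lower (SEC11, -0.22, and HRD1, -0.25, and 5 lower with library totals). Only 1 was lower without C5-63 replicate 1 or 2 or C7-143 replicate 1 or 3. SEC61, the translocation channel, rose from 221 ± 3.56 to 464 ± 24.1 CPM. PDI1, the disulfide isomerase, rose from 1713 ± 158 to 3236 ± 150 CPM, and HAC1, the transcription factor of this response, by 0.85 ± 0.09.

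Cell wall genes moved both ways. Of 57 glucan and mannoprotein genes, 19 were higher (33.3%, against 25.0% of all genes) and 12 lower (21.1%, not above the 23.9% of all genes). With library totals, where 714 of the 5814 genes tested were higher and 2314 lower, 10 of these genes were higher and 19 lower. SCW4, a glucanase-like wall protein, rose by 1.36 ± 0.09, GAS3, a glucan-remodelling relative, by 1.21 ± 0.09 and KRE1, needed for beta-glucan assembly, by 0.79 ± 0.06 on the log2 scale. SRL1, a mannoprotein, stood at 201, 195 and 235 CPM in C5-63 and at 546, 606 and 537 CPM in C7-143. SED1 and HSP150, abundant wall proteins, fell from 5939 ± 193 to 4348 ± 263 and from 2737 ± 83.9 to 1767 ± 115 CPM. TIR1, a mannoprotein of cold and low oxygen, was at 12.6, 14.02 and 11.8 CPM in C5-63 and at 56.4, 28.5 and 46.3 CPM in C7-143, the second-largest rise by the same rule as RPL9A (1.77 ± 0.19). Its relatives in the hypoxic list differed: TIR3 rose by 0.96, TIR2 fell by 0.59, PAU23 by 0.80 and PAU5 by 1.09. Of 29 tested genes of that list 6 were higher (3 without C7-143 replicate 1) and 7 lower. These shares, 20.7% and 24.1%, were not above or were close to the 25.0% and 23.9% of all genes tested. PAU genes are close copies of each other, so their reads may not be assigned to the right member. MID1, a calcium channel subunit at the plasma membrane, rose from 45.9 ± 1.26 to 119 ± 5.88 CPM. Of 22 proton pump and ion transport genes, 10 were higher and 2 lower, with 5 lower under library totals. The lower ones were 1 without C5-63 replicate 1 or C7-143 replicate 2 and 0 without C5-63 replicate 2. The vacuolar proton pump genes VMA2 (0.82), VMA3 (0.75) and VMA6 (0.57) were among those that rose.

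Purine genes were mostly higher. Of 24, 18 were higher and 0 lower, with a median of 0.43, and with library totals 11 were higher and 2 lower. Of 13 tested uracil genes, 5 were higher and 1 lower (URA10, -0.32), with 3 higher and 3 lower under library totals. The lower count was 0 without any 1 of the 6 libraries except C5-63 replicate 3. GUA1, GMP synthase, stood at 107, 96.4 and 139 CPM in C5-63 and at 298, 335 and 247 CPM in C7-143 (log2 1.36 ± 0.15), and the bifunctional ADE5,7 rose by 0.81 ± 0.07. Of the 57 amino acid synthesis genes, 25 were higher and 7 lower. With library totals, where 714 of the 5814 genes tested were higher and 2314 lower, 10 of these genes were higher and 12 lower. ARO4 (1.11 ± 0.11), ARO3 (0.54 ± 0.05) and ARO1 (0.67 ± 0.07) of the aromatic pathway had the lowest adjusted p among them, and the lower genes included LYS4 (-0.52) and ARG1 (-0.53). Of 13 branched-chain genes, 7 were higher and 1 lower (ILV5, -0.35), with 2 higher under library totals, and ILV1, the threonine deaminase, rose from 119 ± 1.55 to 250 ± 23.3 CPM. LEU2, labelled as deleted, was at 249 ± 40.4 CPM in C5-63 and 251 ± 16.8 CPM in C7-143 and was not called. It was at a mean of 173 CPM in C0 and at 0 CPM in C3-06, which carry the same label. The count of a gene does not separate native from added copies, and the source of these reads was not tested. URA3 and MET17 (the MET15 of the labels), also labelled as deleted, had at most 1 read in a library and were not tested. HIS3, whose labelled allele removes part of the gene, was at -0.26 ± 0.07 (adjusted p = 0.00692).

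Sulfur and methionine genes moved both ways. Of 34 tested, 8 were higher (23.5%, close to the 25.0% of all genes) and 12 lower. ADO1 (YJR105W), adenosine kinase, stood at 281, 281 and 277 CPM in C5-63 and at 847, 883 and 828 CPM in C7-143, a log2 fold change of 1.61 ± 0.07 (adjusted p = 4.07e-10). The libraries of each strain lay close together, far from those of the other. SAM2, S-adenosylmethionine synthetase, rose by 1.06 ± 0.13 and SAH1, S-adenosylhomocysteine hydrolase, by 1.04 ± 0.14. CYS3 (0.69) and CYS4 (0.63), which pass sulfur from homocysteine to cysteine, also rose. MET2 (-0.59), MET1 (-0.51), MET6 (-0.50) and SUL2, a sulfate permease (-0.47), were lower, as was MET30, the ubiquitin ligase subunit that restrains the pathway (-0.73).

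Several nutrient uptake and salvage groups were lower. Of 32 iron genes, 15 were lower and 0 higher, with a median of -0.24. ARN2, a siderophore transporter, stood at 127, 143 and 130 CPM in C5-63 and at 83.6, 81.1 and 90.5 CPM in C7-143, and FRE3, a reductase, fell by 0.62. The element bound by Aft1 (TGCACCC) was in 40.6% of the promoters of this list, 1.37% of all lower genes and 1.27% of all promoters. Of 34 vitamin genes, 15 were lower and 5 higher (3 higher without C7-143 replicate 1, without C7-143 replicate 2 or with library totals), with BIO3 of biotin synthesis at -0.93 and THI11, a member of the near-identical THI5 family, at -0.80. Of 29 tested nitrogen catabolite genes, 12 were lower and 2 higher (PTR2, 0.82, and CAR2, 0.71), with 21 lower under library totals. Autophagy showed 18 of 34 lower and 3 higher, the latter being PEP4, the vacuolar protease (0.59), ATG13 and ATG19 (both 0.25), and 1 gene was higher without C7-143 replicate 1. ATG34, a receptor of selective autophagy, fell by 0.72 ± 0.07 and ATG32, the mitophagy receptor, by 0.63 ± 0.09 on the log2 scale. Of 27 multidrug resistance genes 12 were lower and 5 higher (1 higher with library totals), among the latter PDR1, the main regulator (0.37), and SNQ2, a pump (0.38).

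DNA replication genes were higher. Of 49 genes for replication and deoxynucleotides, 35 were higher and 2 lower (MCM3, -0.34, and HUG1, -0.94), with a median of 0.45. Only 1 was lower without C5-63 replicate 1 or 3 or C7-143 replicate 1 or 2. CDC45, a part of the replicative helicase, stood at 17.0, 17.25 and 21.2 CPM in C5-63 and at 31.3, 35.2 and 37.3 CPM in C7-143 (log2 0.90 ± 0.12, adjusted p = 1.92e-05). RFA3 of the single-strand binding complex rose by 0.82 and RAD54 of recombination by 0.47 on the log2 scale. RNR1, the large subunit of ribonucleotide reductase, stood at 99.3, 98.4 and 134 CPM in C5-63 and at 176, 214 and 241 CPM in C7-143. No library of C5-63 reached the lowest of C7-143 in either CDC45 or RNR1. Of 23 genes of G1 and start, 13 were higher and 2 lower (SRL3, -0.32, and WHI5, -0.19), with 5 higher under library totals. Without C5-63 replicate 1, 2 or 3 or C7-143 replicate 1 or 2, 1 was lower. CLN2, a G1 cyclin, rose from 61.2 ± 8.59 to 128 ± 2.13 CPM, SWI4, the DNA-binding part of the factor SBF, by 0.80 ± 0.10, and TOS4, an SBF target, by 1.31 ± 0.14. Of 34 proteasome genes, 12 were higher and 2 lower (RPN4, -0.54, and RPN13, -0.23). With library totals, where 714 of the 5814 genes tested were higher and 2314 lower, 5 proteasome genes were higher and 6 lower. RPN4 is the activator of these genes.

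The promoter of CDC45 is shown for its MluI cell cycle boxes (MCB, ACGCGT, the same on both strands), of which it has 2, in capitals. It runs from 250 to 51 bases before the start codon at chrXII:345992-346191 (minus strand), build R64.
CDC45: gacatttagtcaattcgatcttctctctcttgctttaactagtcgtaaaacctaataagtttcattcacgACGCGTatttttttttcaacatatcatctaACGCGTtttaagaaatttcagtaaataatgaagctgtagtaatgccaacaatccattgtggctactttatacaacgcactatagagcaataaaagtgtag
The box was in 55.1% of the replication promoters, in 5.45% of all genes higher and 1.52% of all genes lower in C7-143, and in 3.08% of all promoters. Genes with the box had a median log2 fold change of 0.21 and those without it of -0.02.

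Markers of mating type and of meiosis were measured as a check on the kind of cell. In TMM-scaled CPM, the 7 markers of a cells summed to 1125 to 1296 in C5-63 and to 1045 to 1129 in C7-143, which overlap. The 4 markers of alpha cells summed to 102 to 110 in C5-63 and to 78.3 to 84.1 in C7-143, and the 6 meiotic markers to 122 to 134 and to 103 to 108, both without overlap. The 6 haploid markers summed to 590 to 606 in C5-63 and to 602 to 615 in C7-143, which overlap. With library totals alone the same sum was lower in C7-143 (604 to 646 against 674 to 706). So was the sum of the a cell markers, without overlap (1041 to 1175 against 1268 to 1551). Of the meiotic markers NDT80, the meiotic activator, was at -0.58, and SPO11 was not called. The part of these markers in the other results was not tested. Of 35 mating genes, 8 were lower (22.9%, close to the 23.9% of all genes) and 4 higher (11.4%, against 25.0%). With library totals 19 were lower and 0 higher, and without C5-63 replicate 2 or C7-143 replicate 2 the higher genes were 2. STE2, the pheromone receptor of a cells, fell by 0.36, and STE12, the pheromone transcription factor, rose by 0.44. Of 23 meiosis genes 8 were lower and 0 higher (14 lower with library totals).

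An earlier step of the lineage, C3-06 against C0, shares no library with the last step. There, 2387 genes were higher (41.1%) and 2292 lower (39.4%). Of the genes higher in C7-143 than in C5-63, 1059 were also higher in C3-06 than in C0, which is 73.0% of the former list and 44.4% of the latter. For lower genes the overlap was 900, or 64.9% and 39.3%. A further 191 genes were higher in the last step and lower in the earlier one, and 255 the reverse. Ribosomal protein genes had medians of 2.53 (large) and 2.47 (small) in the earlier step, against 0.70 and 0.67 in the last. Purine genes had 0.52 and 0.43. Phospholipid genes were at -0.09 in the earlier step and at 0.38 in the last. The meiosis list went the other way, at 0.26 and then -0.27, as did vitamins, at 0.19 and -0.16. These differences between the steps were not tested.

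Along the genome, the median log2 fold change of the 16 nuclear chromosomes lay between -0.04 (chromosomes V and IX) and 0.03 (chromosome XII). No run of 5 neighbouring genes changed in the same direction by at least 0.5 each. The longest runs had 4 genes. On chromosome IV, SUB2 (1.25), RPS16B (0.64), RPL13A (0.59) and RPP1A (0.75) were higher, and on chromosome X, RPS22A, RPL39, SWE1 and MNN5 were higher by 0.51 to 0.76. Lower runs of the same length lay at THI5, AGP3, AQY3 and DAK2 on chromosome VI and from PGU1 to THI11 on chromosome X, where the THI genes are near-identical copies.

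**Figure D5:**
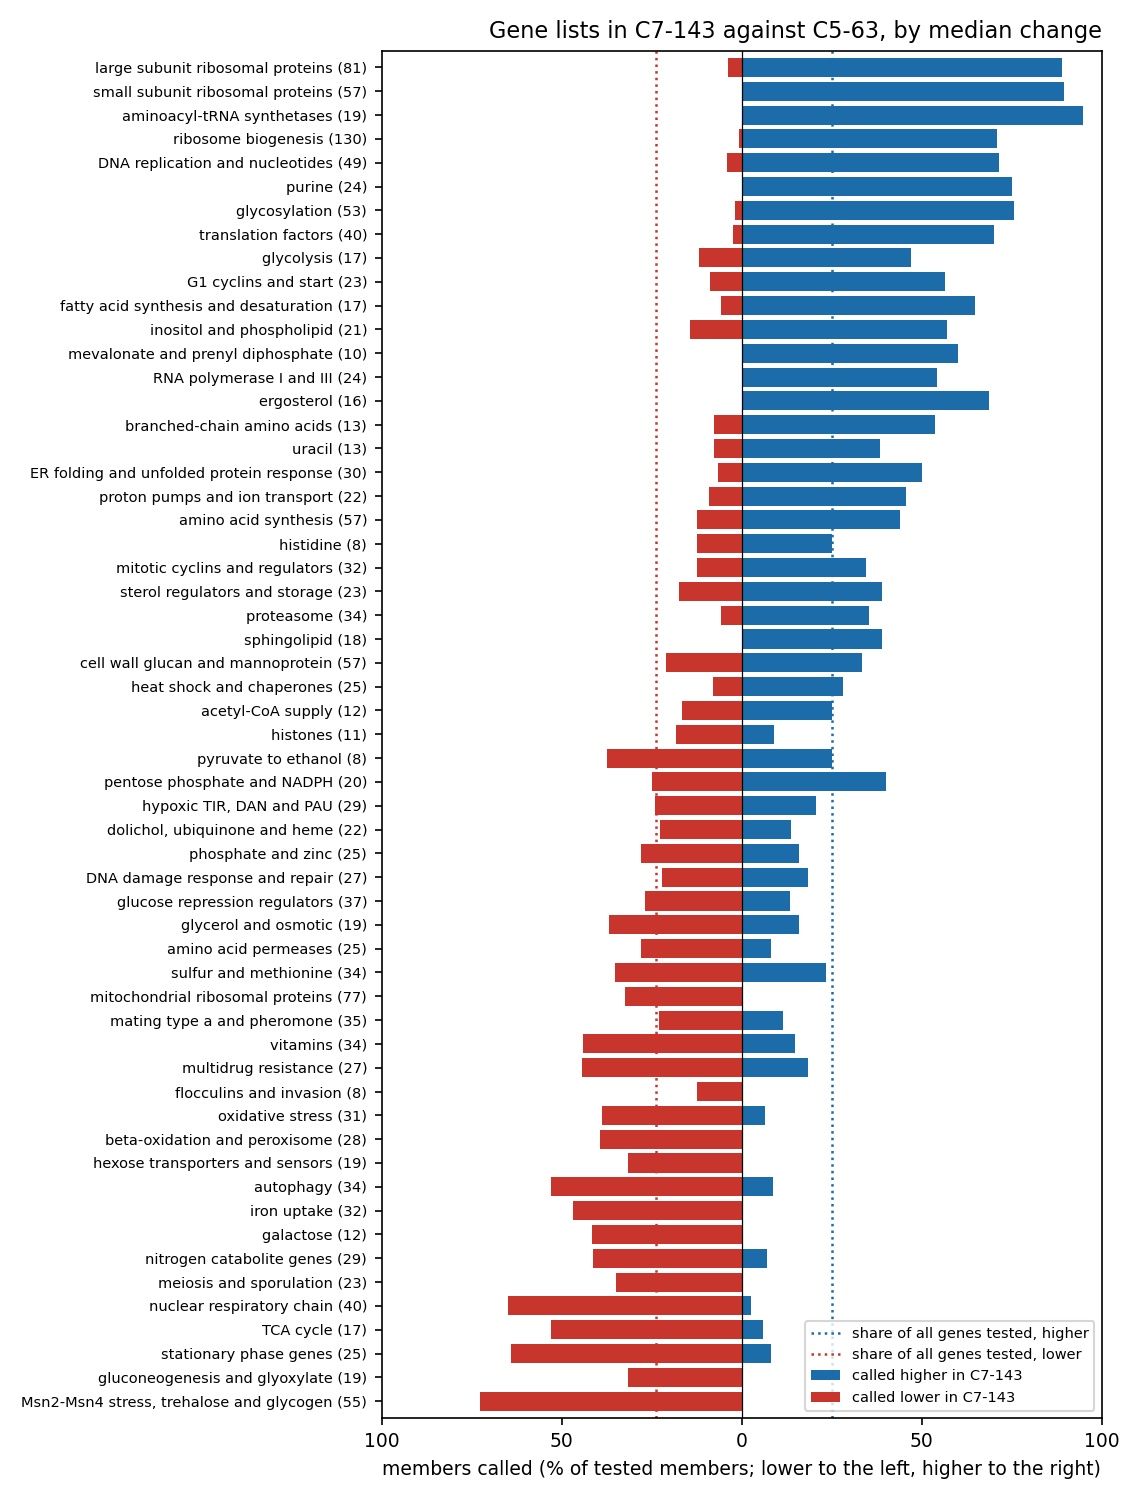
Share of tested members called higher (right, blue) or lower (left, red) in C7-143 for each gene list, with the number of tested members in parentheses, ordered by median log2 fold change. Dotted lines mark the shares over all genes tested, 25.0% higher and 23.9% lower. Translation, purine, glycosylation and replication lists stand at the top, and stress, stationary phase, TCA and respiratory lists at the bottom, with TMM scaling. The balance of amino acid synthesis, cell wall, proteasome, sterol regulator, mitotic and pentose phosphate lists depends on the scaling. That of all genes does too.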

How the data were processed

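RNA of 5 yeast strains was sequenced, 3 libraries each. The authors deposited 1 table of raw counts and FPKM per gene. HISAT2 is named, per the submitters' processing notes; which counter, strand setting or build was used was not given in the sources used here, so reads of overlapping genes cannot be told apart. Of 5980 gene identifiers, 5977 are in R64 and 5972 have the same coordinates there. Deposited FPKM were used to check the table and for levels between genes.

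Counts were fitted with edgeR 4.0.16 under R 4.3.3, after filterByExpr (at least 10 counts, total 15) and TMM scaling, in a robust quasi-likelihood model of all 15 libraries with strain as factor and two-sided tests. The SE is the log2 fold change divided by the square root of F. The fit was tested on simulated counts. A count of 0 allows up to 3 reads, for counting error only.

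Members and gene lists were chosen with earlier results of these data known. Named genes are label genes, the 15 largest rises and falls, mevalonate and ergosterol genes, the 4 lowest adjusted p of each list described, and the 5 largest CPM gains and losses. Others were chosen after their values were seen. One gene that the rule names is not reported here. Lists got no set test. Promoters were read from 250 before to 50 after the start codon. Alternatives were DESeq2 1.42.0, limma-voom (limma 3.58.1), RLE or library-total scaling, filters, 6 libraries only, a replicate block, adjusted p below 0.01 and leaving out libraries.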

Additional observations from a re-analysis of the deposited data

How the results depend on the processing

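No call of C7-143 against C5-63 turned direction under any alternative run. Relative to 1451 genes higher, 1387 lower, 112 at least 2-fold higher and 57 at least 2-fold lower, library totals alone gave 714, 2314, 52 and 99; by construction they omit the TMM factors, which were 1.113 to 1.197 in C5-63 and 0.995 to 1.052 in C7-143. An adjusted p below 0.01 left 884 lower genes. Leaving out each library in turn gave 1194 to 1364 higher, 1056 to 1285 lower, 94 to 135 at least 2-fold higher and 35 to 69 at least 2-fold lower, where 37 (without C5-63 replicate 2) and 35 (without C7-143 replicate 2) were over 1.5 times below the count with all libraries. Those fits have fewer samples. The replicate block gave 1463 higher and 1391 lower, 113 and 53 at least 2-fold, and changed no call of a named gene. Not every same-numbered pair correlated best with its own number: 0.328 for number 1, -0.224 for 2 and 0.0668 for 3. DESeq2, RLE scaling, no filter, the stricter filter, limma-voom and the 6 libraries alone gave counts within 1.5 times. Leaving out C3-06 replicate 1 and BY47419 replicate 2, chosen after seeing the data, gave 1638 higher and 1607 lower genes. Of 212 named genes called, 192 kept their call in every setting. Totals of the 6 libraries were 18452713 to 21586409 reads. Of 5980 genes, 5814 passed the filter, which was set on all 15 libraries, and 5788 were tested with the 6 libraries alone.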
